A study of Sus scrofa with 4 samples.

Results

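Genes of oxidative drug and lipid metabolism were followed in the thymus of pigs with a monoallelic knockout of the interleukin 2 receptor gamma gene. They are FMO1 and the cytochrome P450 (CYP) genes CYP1A1, CYP1A2, CYP2E1 and CYP3A29, 5 of the 3020 pig genes that the arrays name. The members were chosen by rule as every probe whose RefSeq accession belongs to one of these genes, which gave 12 of 43603 probes: 3 for FMO1, 2 for CYP1A1, 1 for CYP1A2, 3 for CYP2E1 and 3 for CYP3A29. The genes were selected with their signal on these arrays already known, so their differences between genotypes are given as a description, with no test.

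RNA of the thymus was measured on 4 Agilent arrays of 1 colour, 2 from KO pigs (genotype IL2RG+/-) and 2 from WT pigs (wildtype), all Minnesota miniature swine. No other allele, agent or treatment was given for either genotype, and the age at sampling of these pigs was not given in the sources used here. The study reports that most KO pigs died in their first week and that an older one was analysed. It does not state the ages behind the arrays, so age may differ between them. The KO pigs were clones made by somatic cell nuclear transfer from cells edited with TALENs, nucleases that cut a chosen DNA site, and most KO pigs had no thymus, so the arrays describe the pair that kept one. The study took the KO samples from separate pigs, whereas nothing in the sources used here says so for the WT samples, and p-values measure only the spread between these samples, which may be technical.

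FMO1 is a flavin-containing monooxygenase, an enzyme of the endoplasmic reticulum that adds oxygen to nitrogen and sulfur atoms of drugs and foreign compounds with electrons taken directly from NADPH. The P450 enzymes carry a haem group instead and receive their electrons from a partner, which is NADPH cytochrome P450 reductase (POR) in the endoplasmic reticulum and adrenodoxin in mitochondria. CYP1A1 and CYP1A2 are the classical targets of the aryl hydrocarbon receptor, CYP2E1 oxidises ethanol and other small molecules, and CYP3A29 is the pig counterpart of the CYP3A enzymes that clear many drugs. The liver is the main site of most of these enzymes, and the thymus is not known for them.

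The scanner software marked between 67.9% and 74.5% of probes per array as well above background, and no spot was saturated. Levels are given as log2 signal relative to the 75th percentile of the same array, and differences as KO minus WT on that scale. The targeted gene IL2RG was lower in KO, by -3.41 on its brightest probe (limma, SE 0.27, adjusted p = 0.00256), with -3.15 and -3.29 on the KO arrays and -0.13 and 0.52 on the WT arrays. Over all 31963 probes tested, the median difference was -0.06, and scaling to array medians instead moved it to -0.32. A gene or probe is called changed here where it differed at least 2-fold and its limma p, adjusted by Benjamini-Hochberg over all tested probes, was under 0.05.

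Of the 5 genes, 2 had probes that passed the filter on signal over background. All 3 FMO1 probes and all 3 CYP3A29 probes were well above background on all 4 arrays, while 5 of the 6 probes for CYP1A1, CYP1A2 and CYP2E1 were not well above background on any array. FMO1 was far higher in KO, at 23.1-fold on its brightest probe, and CYP3A29 was lower by between 1.28-fold and 2.26-fold depending on the probe. Only the 6 probes of FMO1 and CYP3A29 passed the filter on dim probes, so no count over the passing probes stands for the whole set.

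**Figure D1:**
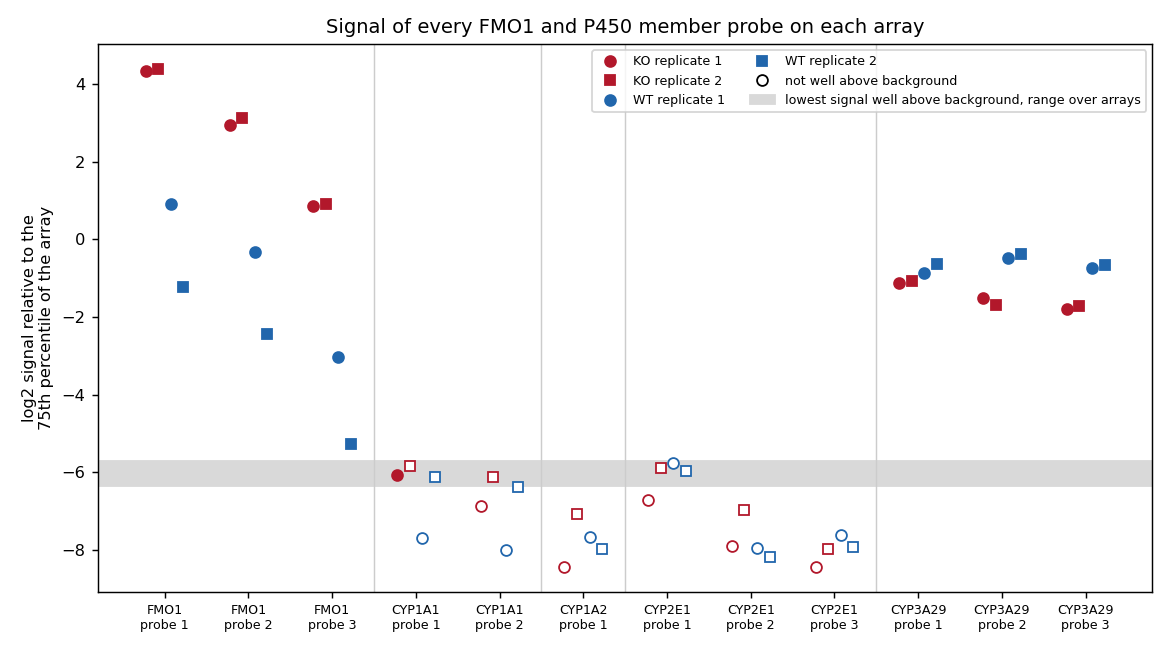
Log2 signal relative to the array's 75th percentile (y axis) of each of the 12 member probes (x axis) on the 4 arrays, where colour gives the genotype, marker shape the replicate number, and open markers a signal not well above background. FMO1 probes lie higher on both KO arrays than on both WT arrays, the WT arrays are spread widely for FMO1, CYP3A29 probes lie slightly lower on KO, and the probes of the other 3 genes lie near or under the grey band of the lowest signals that were well above background.

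The brightest FMO1 probe, A_72_P165386, had processed signals of 15542 and 14593 on KO replicates 1 and 2, and of 1162 and 296 on WT replicates 1 and 2. On the log2 scale these were 4.35 and 4.39 in KO against 0.91 and -1.23 in WT. Both KO arrays lay above both WT arrays, the KO arrays were nearly equal, and the WT arrays stood 4.39-fold apart. The KO mean was 4.37 ± 0.03 (SD, n = 2) and the WT mean -0.16 ± 1.51 (SD, n = 2), a difference of 4.53. Within its array, this probe stood at the 96.2 and 96.0 percentile of all probes in KO and at the 80.7 and 65.9 percentile in WT.

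The other FMO1 probes gave the same order of the arrays. Probe A_72_P567674 had log2 signals of 2.95 and 3.13 in KO and of -0.34 and -2.43 in WT, a difference of 4.42 or 21.5-fold. Probe A_72_P569629 had 0.85 and 0.92 in KO against -3.02 and -5.26 in WT, a difference of 5.03 or 32.6-fold. The KO arrays differed little on all 3 probes, and WT replicate 1 was higher than WT replicate 2 on each, by 4.28-fold on the second probe and 4.72-fold on the third. That gap between WT arrays was wide for these data, since the median probe differed 1.23-fold between the WT arrays and 99.0% of the tested probes had a smaller gap than the brightest FMO1 probe.

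The FMO1 fold change depended on the WT array it was taken against. Slide 1 held KO replicate 1 with WT replicate 2, and slide 2 held the other two arrays. Within slide 1 the brightest probe was higher in KO by 5.58, and within slide 2 by 3.49. The direction was the same within both slides, and the larger difference was on the slide that held the lower WT array. Leaving out WT replicate 1 gave 5.60 and leaving out WT replicate 2 gave 3.47, whereas leaving out KO replicate 1 or 2 gave 4.55 or 4.51.

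In this contrast, whose values were known when the gene was chosen, 21.0% of the tested probes were called higher in KO and 13.0% lower, and both KO arrays lay above both WT arrays on 37.7% of the probes and below on 41.0%. The balance of calls turned with the scaling, to 5810 probes higher and 6335 lower when the arrays were scaled to their medians. The difference of the brightest FMO1 probe ranked 117 from the top among the 31963 tested probes, and 13 named genes of 2702 had a larger one on their brightest probe. No other gene of the FMO family was analysed here, so FMO1 was not compared with the rest of its family.

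The named genes nearest to FMO1 in profile over the 4 arrays were sought among 2512 candidates by the root mean square distance of log2 signals centred on each gene's mean. ITIH4, a secreted plasma protein of the inter-alpha-trypsin inhibitor family, was the nearest at a distance of 0.28, with log2 signals of 2.18 and 2.28 in KO against -1.03 and -2.68 in WT. SLC2A4, the insulin-regulated glucose transporter of muscle and fat, followed at 0.40, with 1.43 and 2.35 in KO against -1.01 and -3.73 in WT. FOLH1B was the next at 0.45, with -0.03 and 0.15 in KO against -2.89 and -4.46 in WT. The likeness rests on 4 arrays and on the shape of the profile, not its level, and the shared order of the arrays follows from how these genes were picked.

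CYP3A29 had signal in both genotypes and was lower in KO. Its brightest probe, A_72_P755349, had processed signals of 351 and 327 in KO and of 342 and 446 in WT, and log2 signals of -1.12 and -1.09 in KO and of -0.86 and -0.64 in WT. The genotypes did not overlap after scaling, with a KO mean of -1.10 ± 0.02 (SD, n = 2) and a WT mean of -0.75 ± 0.16 (SD, n = 2). The difference was -0.35, a 1.28-fold lower level, beside the median of -0.06 over all tested probes. It ranked 11516 from the bottom among the 31963 tested probes.

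The other CYP3A29 probes had larger differences. Probe A_72_P088491 had log2 signals of -1.51 and -1.70 in KO and of -0.49 and -0.37 in WT, a difference of -1.17 or 2.26-fold. Probe A_72_P797432 had -1.81 and -1.72 in KO against -0.75 and -0.67 in WT, a difference of -1.06 or 2.08-fold. All 3 probes had both KO arrays below both WT arrays, as had 41.0% of all tested probes, and they disagreed on the size, from -1.17 to -0.35. Within slides 1 and 2 the brightest probe differed by -0.48 and -0.23, the second by -1.14 and -1.21, and the third by -1.14 and -0.97. The mean over the 3 probes was -0.86, and the brightest probe gave -0.61 when the arrays were scaled to their medians.

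**Figure D2:**
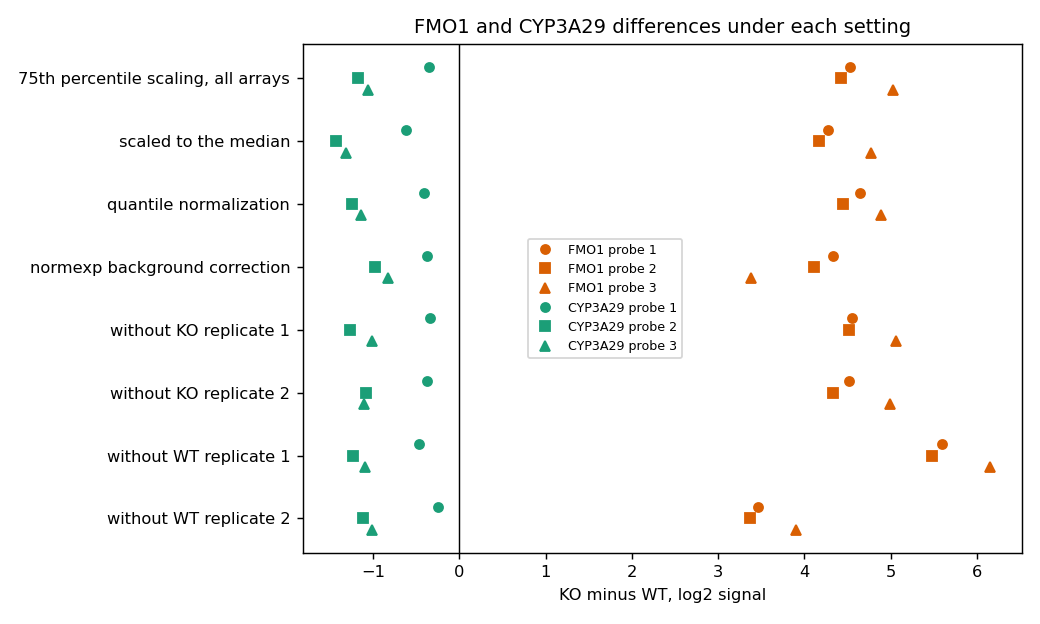
KO minus WT difference in log2 signal (x axis) of each FMO1 and CYP3A29 probe under each scaling, background correction and left-out array (y axis). Every FMO1 probe lies above 0 and every CYP3A29 probe below 0 under all settings drawn, and leaving out a WT array moved the brightest FMO1 probe to 5.60 or 3.47, while normexp background correction moved the FMO1 probe A_72_P569629 to 3.38.

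The genes nearest to CYP3A29 in profile were CWF19L1 at a distance of 0.019, PES1, a ribosome biogenesis factor, at 0.020, and PPP2R1A, the scaffold subunit of protein phosphatase 2A, at 0.021. Their differences were -0.37, -0.38 and -0.38, close to that of the brightest CYP3A29 probe. CYP3A46, the next CYP3A gene in the RefSeq order and the other CYP3A gene with a named probe, did not pass the test, at 0.50 (limma, SE 0.18, adjusted p = 0.0816). Its 4 probes ranged from -0.01 to 0.82. CYP3A genes are close in sequence, and cross-hybridisation between them was not tested.

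CYP1A1, CYP1A2 and CYP2E1 gave no level that could be compared. The brighter CYP1A1 probe, A_72_P223362, had processed signals of 11.4 and 12.1 in KO and of 2.999 and 9.96 in WT, and was well above background on KO replicate 1 alone. The other, A_72_P443804, had 6.48 and 10.0 in KO against 2.43 and 8.40 in WT. On both probes WT replicate 1 was lowest and WT replicate 2 was near the KO arrays. No fold change is given for CYP1A1, since its mean log2 signal in KO lay under the lowest signals that counted as well above background on the WT arrays.

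The single CYP1A2 probe, A_72_P440936, had processed signals of 2.20 and 5.19 in KO and of 3.04 and 2.76 in WT, none of them well above background, and the genotypes overlapped. CYP1A2 lies next to CYP1A1 in the RefSeq order. The brightest CYP2E1 probe, A_72_P165451, had 7.31 and 11.7 in KO against 11.52 and 11.01 in WT, and its genotypes overlapped as well. The second CYP2E1 probe had 3.17 and 5.49 in KO against 2.48 and 2.38 in WT, and the third had 2.21 and 2.76 in KO against 3.13 and 2.87 in WT. No CYP2E1 probe was well above background on any array, though the scanner software marked the brightest one as positive and significant on every array. A signal at this level does not show that the transcript was absent.

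Beyond these members, 22 other P450 genes had a named probe, and 15 passed the filter on dim probes. One was called higher in KO and 1 lower, while 25.2% of all named genes tested were called higher and 12.6% lower. The median difference of the 15 genes was 0.26, beside -0.0019 over all 2702 named genes, and median scaling lowered the second value to -0.26 and the first by the same amount. CYP2B22, a pig CYP2B enzyme of drug metabolism, rose by 3.71 (limma, SE 0.47, adjusted p = 0.00605), from -3.78 and -4.87 in WT to -0.98 and -0.26 in KO. Like FMO1 it was higher on WT replicate 1 than on WT replicate 2, but its KO arrays lay further apart. Its second probe was at least 9.04-fold higher in KO, against the lowest signal that was well above background on the WT arrays.

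CYP4A24, a fatty acid hydroxylase, fell by 1.89 (limma, SE 0.18, adjusted p = 0.00331), from 2.32 and 2.60 in WT to 0.58 and 0.55 in KO. The 13 others were not called. CYP27A1, a mitochondrial sterol hydroxylase, had 2.60 (limma, adjusted p = 0.0650), and it was called higher with the slide as a block (limma, adjusted p = 0.0134) and after normexp background correction at 1.61 (limma, adjusted p = 0.0241). Among them CYP51, the lanosterol demethylase of cholesterol synthesis, had 0.56 (limma, adjusted p = 0.0513), and CYP2A19 had 0.58 (limma, adjusted p = 0.0520). CYP24A1, which inactivates vitamin D, had -0.14 (limma, adjusted p = 0.576). Its other probe had 0.40 (limma, adjusted p = 0.0958). That probe was far dimmer, with processed signals of 1127 and 1062 in KO and of 734 and 767 in WT. The brightest probe had 515772 and 549455 in KO and 555011 and 507085 in WT. Which of these probes reports CYP24A1 was not tested. As with CYP1A2 and CYP2E1, no probe of CYP7A1 and CYP8B1 of liver bile acid synthesis, of CYP17A1, CYP19A2 and CYP19A3 of steroid synthesis, or of CYP27B1 was well above background. Leaving out WT replicate 1 raised the count of P450 genes called higher to 3, with CYP27A1 at 3.70 and CYP2C42, whose remaining WT array was not well above background, and leaving out WT replicate 2 gave 2 higher and 2 lower, with CYP2D25 at 2.90 and CYP11A1 at -2.75.

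**Figure D3:**
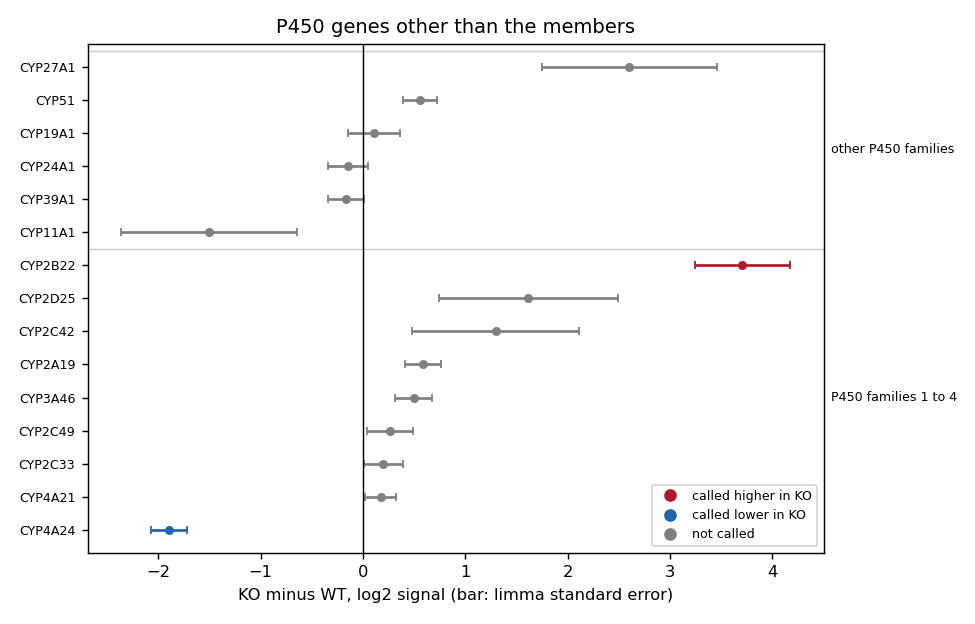
KO minus WT difference in log2 signal (x axis) of the 15 other P450 genes that passed the filter (y axis), with the limma standard error as the bar. CYP2B22 at 3.71 was called higher in KO, CYP4A24 at -1.89 was called lower, and the 13 grey genes were not called.

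The partners that P450 enzymes need were measured beside them. None of the 6 tested genes listed as electron donors was called, beside 25.2% of all named genes tested called higher and 12.6% lower. At a limma adjusted p under 0.05 without the fold limit, some of the 6 differed. POR, the donor of CYP3A29 and of the other microsomal P450 enzymes, had -0.69 (limma, adjusted p = 0.0305), and adrenodoxin reductase (FDXR) had -0.94 (limma, adjusted p = 0.0132), which median scaling moved to a call at -1.20. Both were named after their values were seen. Cytochrome b5 (CYB5A) had 0.66 (limma, adjusted p = 0.0407), so the donors differed in sign. PGRMC1, a partner listed with them, had 0.60 (limma, adjusted p = 0.0379).

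Of 8 regulators tested, 1 was called, higher in KO, beside 25.2% of all named genes tested called higher. CEBPB, a transcription factor of liver and fat gene expression, rose by 1.88 (limma, SE 0.25, adjusted p = 0.00653), and was not called after normexp background correction, at 0.70. The pregnane X receptor NR1I2, the classical activator of CYP3A genes, had -0.31 (limma, adjusted p = 0.666), with overlapping genotypes. The glucocorticoid receptor NR3C1 had -0.71 (limma, adjusted p = 0.0222). The aryl hydrocarbon receptor, which controls CYP1A1 and CYP1A2, had no named probe. Of 4 genes of haem synthesis and breakdown, HMOX1, which breaks haem down, rose by 1.47 (limma, adjusted p = 0.0135), and was not called without KO replicate 2 at 1.27.

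Enzymes that act beside or after FMO1 and the P450 enzymes were measured as well. Of 12 conjugating enzymes and hydrolases tested, 4 were called higher and 2 lower, beside 25.2% and 12.6% of all named genes tested. SULT1E1, the oestrogen sulfotransferase, had log2 signals of -0.41 and -1.07 in KO and of -6.36 and -6.16 in WT. Neither WT array was well above background, so the gene passed the filter through KO alone and was at least 33.8-fold higher there. Its fitted difference, against WT signals at that level, was 5.52 (limma, adjusted p = 0.00205). EPHX1, the microsomal epoxide hydrolase that acts on epoxides made by P450 enzymes, rose by 3.14 (limma, SE 0.28, adjusted p = 0.00312), and GSTA4, a glutathione transferase for lipid aldehydes, fell by 2.19 (limma, SE 0.18, adjusted p = 0.00273). EPHX2 had 3.72 (limma, adjusted p = 0.0919), with its WT arrays at -5.39 and -1.23, the reverse of the order of the WT arrays in FMO1. It was called higher without WT replicate 1 at 1.64, without WT replicate 2 at 5.81 and after normexp background correction at 2.48.

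Of 12 other oxidases and reductases tested, 6 were called higher and 1 lower. PON3, among those called higher, passed the filter through KO alone and was at least 3.19-fold higher there. Its processed signals in KO were low, at 31.3 and 54.2, and it was not called after normexp background correction, at 0.34. AKR1C1, an aldo-keto reductase of steroids, rose by 3.46 (limma, SE 0.44, adjusted p = 0.00608), and the quinone reductase NQO1, another flavoenzyme, rose by 2.60 (limma, SE 0.20, adjusted p = 0.00248). The monoamine oxidases MAOA and MAOB rose by 1.80 and 1.27 (limma, adjusted p = 0.0208 and 0.0334). Carbonyl reductase CBR1 fell by 1.37 (limma, adjusted p = 0.0108). In all 42 partner and pathway genes tested, 12 were called higher and 3 lower, with a median of 0.53, beside 25.2% and 12.6% of all named genes tested, so the count called higher was near that background. These counts fell to 6 and 1 without KO replicate 2 and to 9 and 1 without KO replicate 1, and rose to 16 and 6 without WT replicate 1. GSTO1, GSTZ1, MAOA, MAOB and CBR1 lost their call when either KO array was left out, with adjusted p from 0.0545 to 0.142.

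**Figure D4:**
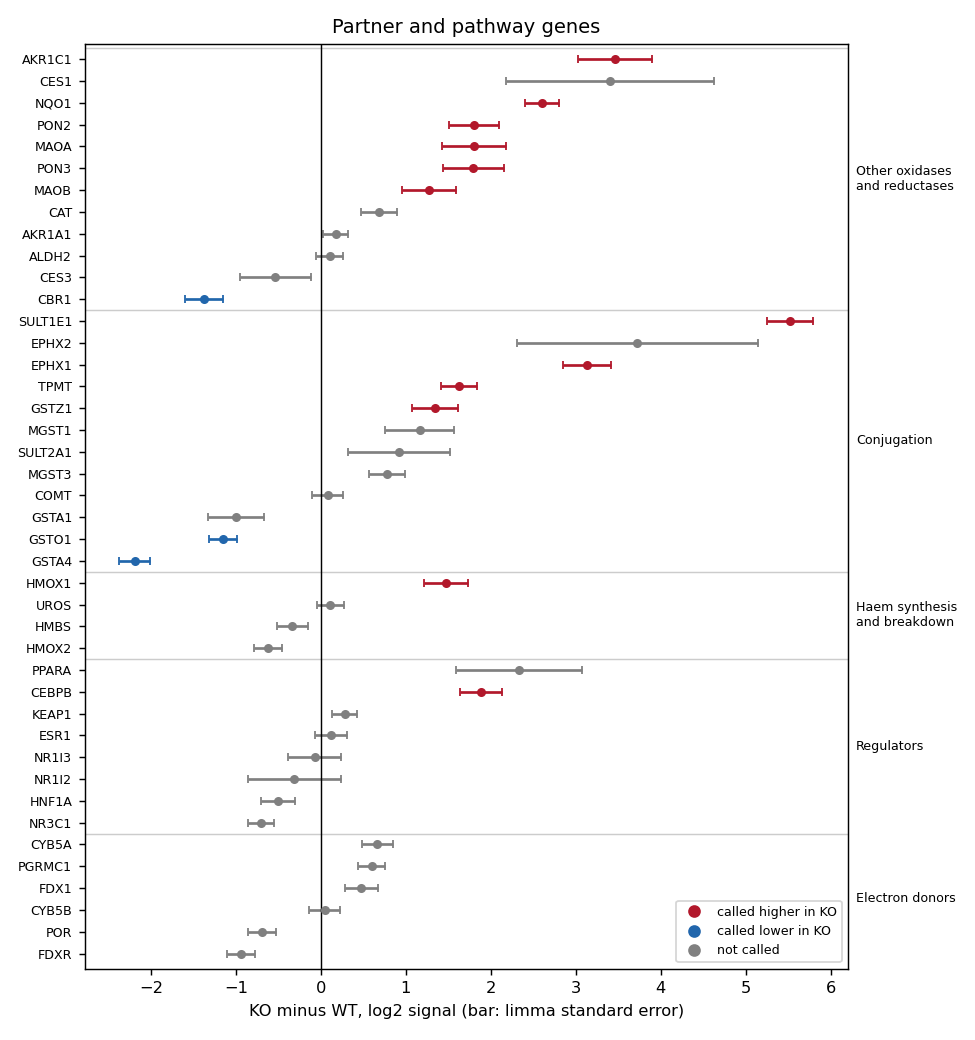
KO minus WT difference in log2 signal (x axis) of the 42 partner and pathway genes that passed the filter (y axis), grouped by role, with the limma standard error as the bar. The electron donors and most regulators were not called, and the called genes are mostly conjugating enzymes, oxidases and reductases, with SULT1E1 at 5.52, a fitted value against WT signals that were not well above background.

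Markers of the cell types that a thymus sample can hold differed between the genotypes along with FMO1. In bulk tissue, fewer cells of a type and less RNA per cell cannot be told apart. All 11 thymocyte markers tested were called lower in KO, and their summed signal, in multiples of the 75th percentile, was 26.3 and 25.4 in KO against 162 and 232 in WT. All 8 macrophage markers and all 4 fibroblast markers were called higher in KO, as were 5 of 9 fat cell markers and 5 of 7 endothelial markers, with 1 endothelial marker lower. Over all named genes tested, the shares called higher and lower were 25.2% and 12.6%. Without KO replicate 2 the calls fell to 6 of 8 for macrophage, 1 of 4 for fibroblast, 1 of 9 for fat cell and 4 of 7 for endothelial markers, without KO replicate 1 to 7, 1, 3 and 4, and without WT replicate 2 the fat cell count fell to 3, while the thymocyte count stood at 11 each time. Their part in the FMO1 and CYP3A29 differences was not tested.

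The order of the arrays can be set beside that of FMO1. The fibroblast sum was 132 and 194 in KO against 63.7 and 28.1 in WT replicates 1 and 2, and the fat cell sum was 55.5 and 161 in KO against 33.3 and 25.3 in WT. The macrophage sum was 241 and 304 in KO against 63.8 and 52.7 in WT. The thymus epithelium sum, over 2 genes, was 213 and 205 in KO against 63.5 and 42.2 in WT, most of it from KRT8. The other gene, EPCAM, was not called, at 0.37 (limma, adjusted p = 0.127), and was higher in WT replicate 2 than in WT replicate 1. The endothelial sum was 25.1 and 27.2 in KO against 23.2 and 28.9 in WT, with overlapping genotypes. The fibroblast, fat cell, macrophage and thymus epithelium sums were higher in WT replicate 1 than in WT replicate 2, as FMO1 was, and the endothelial sum was lower. Between the KO arrays, the fibroblast, fat cell, macrophage and endothelial sums were higher on replicate 2, the fat cell sum by 2.89-fold. The thymus epithelium sum was lower there, and the brightest FMO1 probe was 1.03-fold higher. The bearing of these orders on FMO1 was not tested.

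Liver markers were followed because the liver is the main site of these enzymes. For comparison, 25.2% of all named genes tested were called higher in KO and 12.6% lower. Of 8 liver markers tested, 1 was called higher, APOA1, and 2 lower, APOC3 and TF, and none of the 3 was called without KO replicate 1 or without KO replicate 2. The lower calls of APOC3 and TF were also lost without WT replicate 2 and after normexp background correction. Albumin (ALB), the defining transcript of liver cells, had log2 signals of -5.21 and -4.65 in KO and of -4.58 and -5.07 in WT, little above the lowest signals that counted as well above background, with a difference of -0.11 (limma, adjusted p = 0.783). The liver sum was 41.6 and 45.8 in KO against 29.6 and 16.6 in WT, most of it from haptoglobin (HP). Of 2 kidney tubule markers tested, AQP1 was called higher and AQP2 was not, and their sum with SLC34A1 was under 1 on every array.

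**Figure D5:**
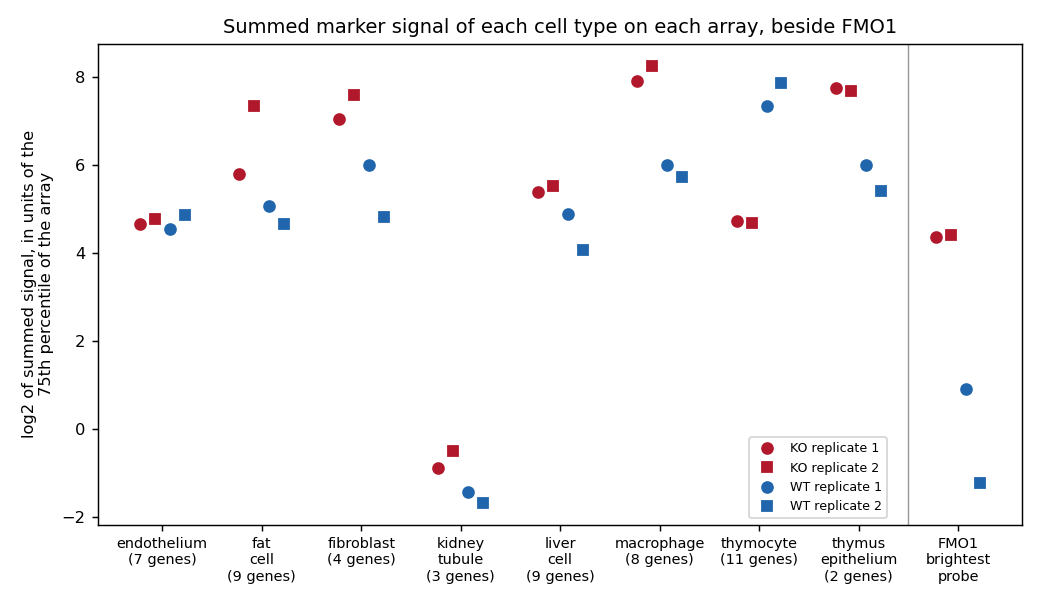
Log2 of the summed signal of each cell type's marker genes, in units of the array's 75th percentile (y axis), on each of the 4 arrays for 8 cell types (x axis), with the brightest FMO1 probe at the right. Macrophage, fibroblast, fat cell and thymus epithelium sums lie higher on both KO arrays and lower on WT replicate 2 than on WT replicate 1, as FMO1 does, while the thymocyte sum runs the other way and the endothelium sum overlaps between genotypes and is highest on WT replicate 2. THBD, which was lower in KO, makes up most of the endothelium sum on the WT arrays, and the other endothelial markers tested were higher on both KO arrays. KRT8 makes up most of the thymus epithelium sum.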

How the data were processed

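RNA of thymus from 2 KO and 2 WT samples was measured on Agilent porcine arrays with 1 colour. The authors deposited intensity values as output of Feature Extraction 11.0.1.1, with background subtracted and spatial trends corrected, linear and not normalized between arrays. They also deposited log2 values, used here as an alternative. Control spots and outlier spots were left out. Log2 processed signals were averaged over the spots of a probe, and the array's 75th percentile over probes was then subtracted. A probe was tested where both arrays of either genotype had it well above background, and the 31963 such probes were fitted with lmFit and eBayes of limma (3.58.1, R 4.3.3), with Benjamini-Hochberg adjustment over all of them. The member genes were given no test. A gene was represented by its brightest probe.

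Genes were named through RefSeq accessions (table of Sscrofa11.1, names and gene order alone), which matched 6686 of 7111 probes with an accession. Members and lists were chosen with earlier results of these data known. Named were all members, IL2RG, listed genes that were called, up to 4 bright uncalled genes per list, and the 3 genes nearest in profile. Alternatives were other scalings, normexp (offset 50, on median spot signals), other filters, blocks, left-out arrays, another summary of probes and the methods' t-test. The number of arrays limits the precision. The fit was tested on simulated data.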

Additional observations from a re-analysis of the deposited data

How the results depend on the processing

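The differences of IL2RG, FMO1 and CYP3A29 kept their sign under every alternative run. FMO1 ranged from 3.47 to 5.60 and CYP3A29 from -0.86 to -0.24 on the log2 scale (brightest probe, or mean of probes). Median scaling gave 5810 probes higher and 6335 lower in KO (6712 and 4171 with the 75th percentile), 5 pathway genes lower and CYP3A29 at -0.61. Normexp background correction gave 3909 probes higher and 2702 lower. The P450 genes called higher numbered 2 with normexp, with the slide as a block and with an intensity trend in limma, and the mean of all probes gave CYP3A29 at -0.86. The methods' t-test called 0 probes or genes in any set with the Bonferroni correction, and 722 probes higher, 783 lower and 0 P450 or pathway genes after Benjamini-Hochberg adjustment, with IL2RG at -3.41 and an adjusted p of 1 and 0.0614. At an unadjusted p under 0.05 and 2-fold it gave 5098 probes higher and 3513 lower, 1 P450 gene each way, and 8 pathway genes higher and 3 lower, where limma called 6712, 4171, 1, 1, 12 and 3. Leaving out 1 array, which leaves a lone sample assumed to vary like the other genotype, gave 4014 to 7566 probes higher and 2081 to 5148 lower, 1 to 3 P450 genes higher and 1 to 2 lower, 6 to 16 pathway genes higher and 1 to 6 lower, FMO1 at 3.47 to 5.60, CYP3A29 at -0.46 to -0.24 and IL2RG at -3.74 to -3.09. The replicate block gave 6631 probes higher and 4038 lower, 1 P450 gene each way, 13 pathway genes higher and 3 lower, and 2 of 4 fibroblast markers higher. Each replicate or slide block held 1 array of each genotype, so a block fit could not change the size of a difference. FMO1 at 4.53 and CYP3A29 at -0.35 were therefore fixed in advance in both block fits. Deviations of arrays with the same replicate number correlated at -0.29, and the crossed pairing is the slide block, so the numbers were not taken as pairs. Signal over background limits CYP1A1, CYP1A2 and CYP2E1, which could not be compared under any setting.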

Other observations

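Probes of 1 P450 gene disagreed in other cases too, all picked after their values were seen. CYP4A21 had 0.17 on its brightest probe (limma, adjusted p = 0.396) and was called higher on A_72_P461493 at 1.81 (limma, adjusted p = 0.0175). CYP11A1, which starts steroid synthesis, had -1.50 on its brightest probe (limma, adjusted p = 0.214), with WT arrays at -0.75 and -3.26. Its probe A_72_P381703 passed the filter through KO alone and was at least 2.06-fold higher there. The fitted difference of that probe, against WT signals not well above background, was 2.44 (limma, adjusted p = 0.0251). All 4 CYP51 probes gave similar differences, from 0.56 to 0.66. All 5 CYP2A19 probes that passed the filter had positive differences, from 0.41 to 0.89, and none was called.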
